A study of Homo sapiens with 12 samples.

Results

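Small nucleolar RNA (snoRNA) host genes were followed in MDA-MB-231 cells, an established human triple-negative breast cancer line, after knockdown of NONO or of PKM2. The members were all genes named SNHG followed by a number, together with GAS5, ZFAS1, DANCR, TUG1, EPB41L4A-AS1, MEG3 and CCDC26, and they had to be present in both deposited tables. This gave 35 genes of the 60558 that the tables share. RNA was sequenced from NONO-knockdown cells with their own negative control (NC) cells and from PKM2-knockdown cells with separate NC cells, so the experiments shared no library. Each of the 4 groups held 3 libraries, numbered as repeats. Nothing in the labels says that the repeats came from separate cultures, so each p-value measures the spread between these libraries, which may be technical. The labels call the NC cells wild type and the other cells NONO knockdown or PKM2 knockdown. The RNA-seq methods of the study do not name the knockdown reagent.

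Most snoRNAs of human cells are not transcribed from a gene of their own. They lie in introns of a host gene and are cut out of the spliced intron, after which box C/D snoRNAs guide 2'-O-methylation and box H/ACA snoRNAs guide pseudouridylation of ribosomal RNA, while small Cajal body RNAs act on spliceosomal RNA. Many hosts are long non-coding RNAs whose spliced exons are translated poorly and removed by nonsense-mediated decay (NMD), and several begin with a run of pyrimidines, the 5' terminal oligopyrimidine (TOP) motif that they share with ribosomal protein mRNAs.

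RefSeq (GRCh38.p14) places 151 snoRNA genes inside 31 of the 35 members, 84 of them in SNHG14. These were counted by position, and the strand was not compared. Counts from GENCODE 29 on the strand of the host differed for some members, with 0 in GAS5 and 5 in SNHG12 beside 11 and 4 in RefSeq. By the family of most of its snoRNAs, 14 members were box C/D hosts, 12 were box H/ACA hosts and 4 (SNHG10, SNHG20, SNHG21 and SNHG22) held a small Cajal body RNA. SNHG28 held a snoRNA without a family name. TUG1, MEG3, CCDC26 and SNHG27 held none in RefSeq, so for these the name of the set was not borne out by the annotation. In 17 members a single snoRNA was annotated.

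The snoRNAs shown here are products of some of the hosts that passed the test with a change of at least 0.5 on the log2 scale. They are given 5' to 3' from the GENCODE 29 transcripts (GRCh38). Capitals mark the C box TGATGA and the D box CTGA of box C/D snoRNAs, or the ACA near the 3' end of box H/ACA snoRNAs.
SNORD12C, in ZFAS1, chr20:49278940-49279028, plus strand: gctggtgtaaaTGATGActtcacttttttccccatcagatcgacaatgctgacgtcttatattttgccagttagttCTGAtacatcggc
SNORD7, in SNHG30, chr17:35573657-35573753, plus strand: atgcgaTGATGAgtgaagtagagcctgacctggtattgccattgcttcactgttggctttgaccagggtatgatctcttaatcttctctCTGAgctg
SNORD60, in SNHG19, chr16:2155023-2155105, minus strand: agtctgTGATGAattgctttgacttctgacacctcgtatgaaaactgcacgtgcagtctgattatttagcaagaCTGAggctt
SNORD123, in SNHG18, chr5:9548836-9548905, plus strand: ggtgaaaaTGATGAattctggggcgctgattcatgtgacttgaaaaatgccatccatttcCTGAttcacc
SNORD50B, in SNHG5, chr6:85677589-85677658, minus strand: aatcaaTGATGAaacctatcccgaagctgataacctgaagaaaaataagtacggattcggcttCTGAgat
SNORD1B, in SNHG16, chr17:76561109-76561192, plus strand: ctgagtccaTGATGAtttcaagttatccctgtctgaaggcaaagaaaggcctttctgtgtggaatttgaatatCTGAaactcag
SNORA71A, in SNHG17, chr20:38427309-38427442, minus strand: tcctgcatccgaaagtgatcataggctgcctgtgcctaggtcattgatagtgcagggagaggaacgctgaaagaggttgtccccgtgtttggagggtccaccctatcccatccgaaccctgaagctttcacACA

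The transcript starts of the hosts were searched for runs of C or T on the sense strand, from 10 bases before to 20 bases from the RefSeq start on. A run could thus lie wholly before the start, outside the transcript, as in SNHG29, SNHG7 and SNHG14. Of the 30 members with a promoter entry, 19 (63.3%) held a run of at least 6 pyrimidines, beside 30.1% of the 27305 promoters of all genes. The letters CACGTG, which read the same on both strands, were found within the 300 bases around the start of 3 of the 30 members (10%) beside 7.43% of all promoters. A match is a description of these letters and not evidence of use. The windows below are of members that rose or fell after a knockdown and, as the last of them, of TUG1, which did not pass the test in either. The longest run of pyrimidines is in capitals.
ZFAS1, chr20:49278632-49278661, plus strand: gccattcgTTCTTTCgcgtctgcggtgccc
SNHG5, chr6:85678714-85678743, minus strand: gcacttcggTCTTTTacgtcggccttcgcg
SNHG3, chr1:28505933-28505962, plus strand: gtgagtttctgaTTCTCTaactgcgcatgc
SNHG16, chr17:76557754-76557783, plus strand: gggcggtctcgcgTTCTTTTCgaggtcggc
SNHG19, chr16:2155339-2155368, minus strand: ccgcccctgTCTTTTCggggtcgagtccga
SNHG12, chr1:28581854-28581883, minus strand: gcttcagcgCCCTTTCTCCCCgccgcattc
SNHG4, chr5:139274091-139274120, plus strand: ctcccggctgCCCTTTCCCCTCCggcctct
SNHG30, chr17:35568104-35568133, plus strand: tgtaagaCCTgagccgggcggagaagcaaa
SNHG21, chr15:82750554-82750583, plus strand: cggaaagagagtggaTTTactaggaaggtg
TUG1, chr22:30969255-30969284, plus strand: ggggcgggCCgagcgacgcagccgggacgg
Members with a run (ZFAS1, SNHG5, SNHG16 and SNHG19) stood among those that rose and among those that fell after PKM2 knockdown, as the values below show.

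The libraries held 19861762 to 28455268 estimated counts. NONO fell in its own experiment from 391, 358 and 369 to 61.8, 64.3 and 61.9 CPM, counts scaled to a common library total with TMM factors, on the log2 scale -2.57 ± 0.05 (SE; adjusted P = 1.17e-10, edgeR). PKM, the gene of PKM2, fell in the other experiment from 2276, 2211 and 2324 to 217.7, 228 and 234 CPM, on the log2 scale -3.32 ± 0.05 (adjusted P = 7.03e-12). Each target rose in the other experiment. PKM rose by 0.26 ± 0.03 on the log2 scale after NONO knockdown (adjusted P = 0.000122, edgeR). NONO rose by 0.30 ± 0.04 after PKM2 knockdown (adjusted P = 7.54e-05, edgeR). The PKM values cannot separate PKM2 from PKM1, the other product of the same gene. The mesenchymal markers VIM, CD44, AXL and SPARC were high in all libraries, and ESR1, PGR, CDH1, CD3E and PTPRC stayed at 0.41 TPM or less. Of the 12 markers of other cells checked, ERBB2 was the highest, at 13.7 to 35.2 TPM, and the others reached at most 9.93 TPM. The share of counts in clustered histone genes lay between 0.00612% and 0.00671% in the NC and between 0.00904% and 0.00957% in the NONO-knockdown libraries, whereas with PKM2 it lay between 0.0135% and 0.0141% in the NC and between 0.0821% and 0.0890% in the knockdown libraries. Its part in the results below was not tested. By a chi-square of the counts, NC repeat 1 in the NONO experiment and knockdown repeat 3 in the PKM2 experiment stood apart from the repeats of their groups.

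In the NC libraries the hosts spanned the whole range from undetected to abundant on the TPM scale, which is per length. SNHG29, formerly LRRC75A-AS1 and host of SNORD49A, SNORD49B and SNORD65, was the highest in both experiments, at 429, 433 and 454 TPM in the NC libraries of the NONO experiment and at 463, 474 and 463 TPM in those of the PKM2 experiment. GAS5, a growth-arrest transcript that holds 11 snoRNAs, stood at 358, 386 and 382 TPM and at 310.3, 368 and 309 TPM. SNHG5, the host of SNORD50A and SNORD50B, stood at 207, 218 and 236 TPM and at 318, 333 and 314 TPM. SNHG29 did not overlap with GAS5 in either experiment, whereas GAS5 and SNHG5 overlapped in the PKM2 experiment. Of the 34 neighbouring pairs in the order, the ranges overlapped in 22 in the NONO experiment and in 21 in the PKM2 experiment, so most neighbours were not separated beyond their spread.

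At the low end, 4 members (SNHG14, SNHG28, SNHG31 and MEG3) had a mean below 1 TPM in the NC libraries of the NONO experiment, and 4 (SNHG27, SNHG14, SNHG31 and MEG3) in those of the PKM2 experiment. MEG3, an imprinted RNA, had at most 3 counts in any library. Levels of very short transcripts were not dependable: SNHG25 was listed at 7.17, 6.95 and 556 TPM in the PKM2 NC libraries although its counts were 70.8, 66.0 and 84.0. Levels were compared within a table only, since the tables give different transcript lengths for some members.

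**Figure D1:**
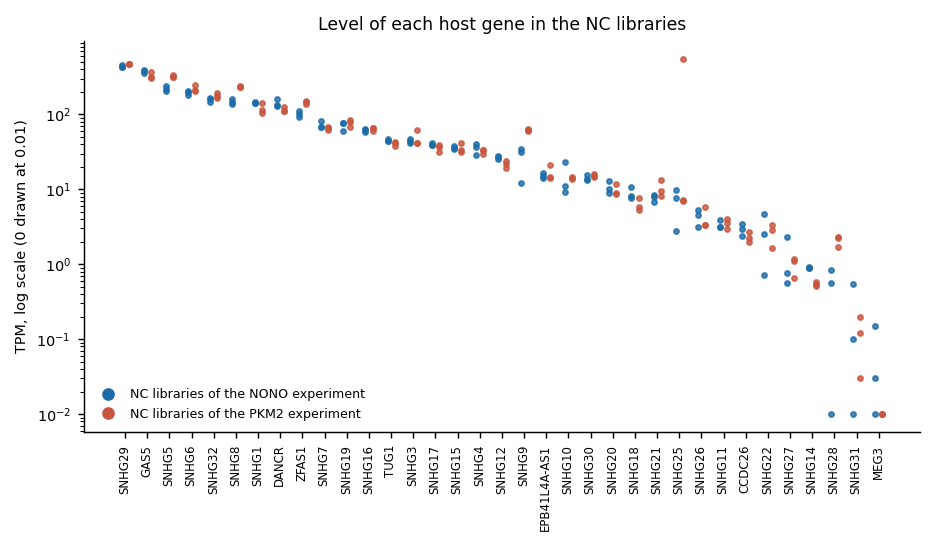
TPM of each of the 35 host genes in the 3 NC libraries of each experiment (points; log axis, values of 0 drawn at 0.01), ordered by the mean in the NONO experiment. SNHG29, GAS5 and SNHG5 lead in both experiments, and SNHG25 has a single value of 556 TPM far above its other values.

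After NONO knockdown, 10 of the 29 host genes tested passed an adjusted P below 0.05, 34.5% beside 33.4% of all 14832 genes tested. Of these 9 rose (31.0% beside 16.2% of all genes) and 1 fell (3.45% beside 17.2%). ZFAS1, SNHG12, SNHG3, SNHG8, SNHG6, SNHG5, SNHG4, SNHG1 and GAS5 rose by a log2 fold change of 0.15 to 0.48, and SNHG18 fell by 1.07. The median log2 fold change of the 29 genes was 0.15, with 23 above 0, and that of all genes tested was -0.01, with 48.4% above 0. A DEG in the study had to change more than 2-fold and have an unadjusted P under 0.05. By this cutoff SNHG18 was lowered and no member was raised by edgeR (1 of 29 beside 2.95% of all genes, of which 2.16% were lowered and 0.789% raised), while 14 of 29 had an unadjusted P under 0.05 (48.3% beside 42.6%). The summed CPM of the 35 members was 1365, 1318 and 1344 in the NC libraries and 1499.7, 1503 and 1509.7 in the knockdown libraries, 1.12 times as high, and the groups did not overlap. Groups of single members did not overlap for 14 of the 29 (48.3% beside 46.1% of all genes). With limma on log2(TPM + 1), 6 members rose and 1 fell, the median was 0.05 beside -0.05 for all genes, and 34.4% of the genes called rose, beside 48.4% with edgeR.

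After PKM2 knockdown, 22 of the 32 host genes tested passed, 68.8% beside 68.4% of all 15524 genes tested. Of these 15 rose (46.9% beside 33.6% of all genes) and 7 fell (21.9% beside 34.7%). SNHG30, SNHG17, SNHG10, ZFAS1, SNHG5 and SNHG3 rose most, and SNHG18, SNHG19, SNHG28, SNHG4, SNHG21, SNHG16 and SNHG12 fell. The median log2 fold change was 0.20, with quartiles of -0.53 and 0.43, beside a median of -0.01 and quartiles of -0.56 and 0.42 for all genes. DEGs numbered 7 of 32 (21.9% beside 20.8% of all genes), of which SNHG30 and SNHG17 were raised (6.25% beside 7.05%) and SNHG18, SNHG19, SNHG28, SNHG27 and SNHG4 lowered (15.6% beside 13.8%). The summed CPM was 1429, 1452 and 1355 in the NC and 1717, 1682 and 1836 in the knockdown libraries, 1.24 times as high, without overlap. For single members the groups did not overlap in 25 of 32 (78.1% beside 71.9% of all genes). With limma on log2(TPM + 1), 10 members rose and 8 fell and the median was 0.07 beside -0.09 for all genes. Without the filter on TPM 7 rose and 8 fell, so the excess of rises over falls was not seen in that fit. Of all genes called, 40.0% rose in that fit, 42.0% with the filter and 49.2% with edgeR.

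Of the 35 members, 3 (MEG3, SNHG22 and SNHG31) had too few counts to be tested in either experiment, and SNHG25, SNHG27 and SNHG28 were tested after PKM2 knockdown only. In RNA from whole cultures, fewer cells expressing a gene and less RNA per cell cannot be told apart.

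**Figure D2:**
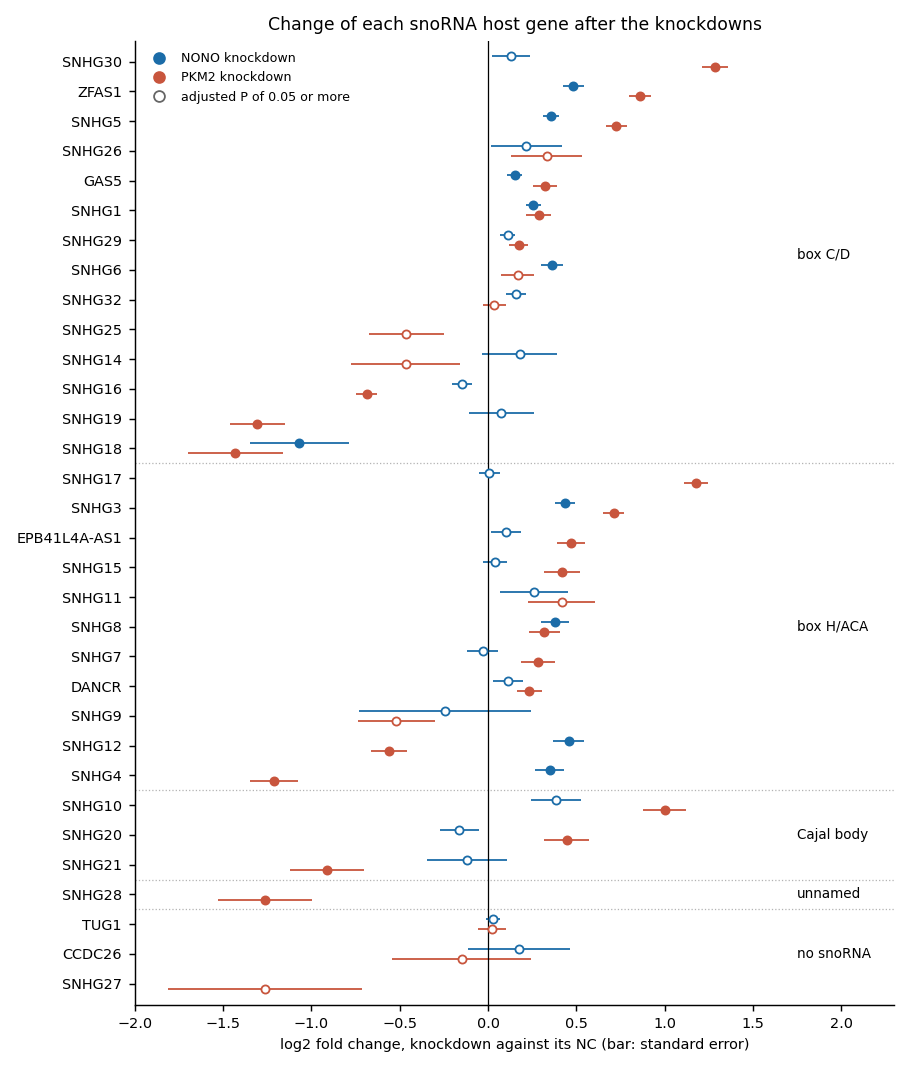
Log2 fold change against NC (x axis; bars are standard errors) of each host gene tested after NONO (blue) and PKM2 (red) knockdown, grouped by the snoRNA family it holds; filled points have an adjusted P below 0.05. After PKM2 knockdown the box C/D and box H/ACA hosts run from -1.43 to 1.29, and after NONO knockdown SNHG18 lies lowest, at -1.07.

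Among the box C/D hosts, 5 of 13 tested rose and 1 fell after NONO knockdown, and 6 of 14 rose and 3 fell after PKM2 knockdown. Of all genes, 16.2% rose and 17.2% fell after NONO knockdown, and 33.6% and 34.7% after PKM2 knockdown. ZFAS1, an antisense neighbour of ZNFX1 that holds SNORD12, SNORD12B and SNORD12C, was raised in both. Its CPM went from 42.0, 43.9 and 45.8 to 61.1, 64.7 and 58.1 in the NONO experiment (log2 fold change 0.48 ± 0.06, adjusted P = 0.000130). It went from 91.7, 88.01 and 82.0 to 149, 155 and 169.9 in the PKM2 experiment (0.86 ± 0.06, adjusted P = 1.92e-07). All 3 knockdown libraries stood above all 3 NC libraries in each.

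SNHG5 followed ZFAS1. Its CPM was 73.1, 77.0 and 79.6 in the NC and 97.9, 98.8 and 97.4 in the NONO-knockdown libraries (0.36 ± 0.05, adjusted P = 0.000189). In the PKM2 experiment it was 110.4, 114 and 107 in the NC and 176, 175 and 198 in the knockdown libraries (0.73 ± 0.06, adjusted P = 3.79e-07). The groups did not overlap in either experiment.

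SNHG30, the host of SNORD7, was raised after PKM2 knockdown and was the member that rose most there. Its CPM went from 11.4, 11.6 and 12.6 to 29.05, 29.4 and 28.3, which is 2.44-fold higher (1.29 ± 0.07, adjusted P = 2.73e-08). In the NONO experiment it was 11.99, 10.1 and 10.2 in the NC and 12.02, 12.3 and 11.1 in the knockdown libraries (0.13 ± 0.11, adjusted P = 0.384), and those groups overlapped.

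SNHG18, the host of SNORD123, was the member that fell in both experiments. Its CPM was 1.96, 3.00 and 2.24 in the NC and 1.496, 0.915 and 1.02 in the NONO-knockdown libraries (-1.07 ± 0.28, adjusted P = 0.0131). It was 2.32, 1.83 and 1.98 in the NC and 0.663, 0.688 and 0.912 in the PKM2-knockdown libraries, 2.69-fold lower (-1.43 ± 0.27, adjusted P = 0.000509). Every knockdown library stood below every NC library. It is a low gene, with 16 to 68 counts per library, and the call in the NONO experiment was lost without the second NC library (adjusted P = 0.0607) or without the second (0.0606) or the third (0.0550) knockdown library. The call in the PKM2 experiment held in all 13 alternatives.

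SNHG19, the host of SNORD60, and SNHG16, the host of SNORD1A, SNORD1B and SNORD1C, fell after PKM2 knockdown. SNHG19 went from 7.17, 6.99 and 6.14 to 2.74, 2.36 and 3.09 CPM, 2.47-fold lower (-1.30 ± 0.15, adjusted P = 1.31e-05). SNHG16 went from 84.1, 82.0 and 77.8 to 50.1, 47.4 and 53.9 CPM (-0.69 ± 0.06, adjusted P = 1.14e-06). The groups were separate for both genes.

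In the NONO experiment neither gene passed the test. SNHG19 was at 3.01, 3.29 and 2.71 in the NC and 3.19, 3.51 and 2.797 CPM in the knockdown libraries (0.08 ± 0.19, adjusted P = 0.791). SNHG16 was at 85.3, 79.6 and 81.8 in the NC and 69.7, 73.6 and 79.3 CPM in the knockdown libraries (-0.15 ± 0.06, adjusted P = 0.0648). The SNHG16 groups lay close together without overlap, and without the third knockdown library the change was -0.20 with an adjusted P of 0.0377.

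GAS5, SNHG29 and SNHG1, among the most abundant hosts, moved by small amounts. GAS5 was at 126, 129 and 131 in the NC and 142, 146 and 141 CPM in the NONO-knockdown libraries (0.15 ± 0.04, adjusted P = 0.0156). It was at 119, 128 and 116 in the NC and 148, 140.2 and 166 CPM in the PKM2-knockdown libraries (0.32 ± 0.07, adjusted P = 0.00107). Without the second NONO-knockdown library the adjusted P of GAS5 was 0.0847, and with limma on log2(TPM + 1) its change after NONO knockdown was 0.02 (adjusted P = 0.749).

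SNHG29 was at 236, 235 and 248 in the NC and 261, 250.1 and 266 CPM in the NONO-knockdown libraries (0.11 ± 0.04, adjusted P = 0.0663, and 0.0227 without the first NC library). It was at 259.7, 261 and 255 in the NC and 288, 273 and 314 CPM in the PKM2-knockdown libraries (0.17 ± 0.05, adjusted P = 0.0134, and 0.0589 without the third NC library). The groups were separate in each experiment although the changes were small. SNHG1, which holds 8 box C/D snoRNAs from SNORD22 to SNORD31, rose by 0.26 ± 0.04 (adjusted P = 0.00111) and 0.29 ± 0.07 (adjusted P = 0.00316). With limma on log2(TPM + 1) the change of SNHG1 after NONO knockdown was 0.13 (adjusted P = 0.0735) and that of SNHG29 after PKM2 knockdown was 0.05 (adjusted P = 0.347), so these calls were lost.

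Of the other box C/D hosts, SNHG6 rose after NONO knockdown (0.36 ± 0.06, adjusted P = 0.00115). After PKM2 knockdown its value was 0.17 ± 0.09 (adjusted P = 0.131), or 0.26 with an adjusted P of 0.0251 without the second knockdown library. SNHG32, formerly C6orf48, did not pass in either experiment (0.16 and 0.04). Its adjusted P in the NONO experiment was 0.0541, and leaving out the first NC, the second NC or the third knockdown library brought it to between 0.0253 and 0.0415. SNHG26 (0.22 and 0.33) and SNHG14, the imprinted host of the SNORD115 and SNORD116 clusters (0.18 and -0.47), did not pass. SNHG25 had 2 to 4 counts per library in the NONO experiment and -0.46 ± 0.21 on the log2 scale after PKM2 knockdown (adjusted P = 0.0724, and 0.0375 without the third knockdown library).

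Among the box H/ACA hosts, 4 of 11 tested rose and none fell after NONO knockdown by edgeR, where 4 of the 11 also had an unadjusted P below 0.05. After PKM2 knockdown 7 of 11 rose and 2 fell. The shares called among all genes were 33.4% and 68.4%. SNHG17, which holds SNORA71A to SNORA71D, rose after PKM2 knockdown. Its CPM went from 38.6, 39.2 and 33.3 to 87.3, 81.8 and 82.6, 2.26-fold higher (1.18 ± 0.07, adjusted P = 3.16e-08). After NONO knockdown it was at 34.7, 35.1 and 34.1 CPM beside 35.6, 33.9 and 33.8 in the NC libraries (0.01 ± 0.06, adjusted P = 0.936), and the groups overlapped.

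SNHG3, the host of SNORA73A and SNORA73B, rose in both experiments. It was at 72.0, 62.7 and 66.5 CPM in the NC and at 92.4, 90.4 and 89.4 in the NONO-knockdown libraries (0.44 ± 0.06, adjusted P = 0.000145). It was at 60.6, 63.9 and 60.0 CPM in the NC and at 96.7, 97.5 and 108 in the PKM2-knockdown libraries (0.71 ± 0.06, adjusted P = 5.61e-07). No knockdown library reached down to an NC library in either experiment.

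SNHG4, the host of SNORA74A and SNORA74D, and SNHG12, which holds SNORA16A, SNORA44, SNORA61 and SNORD99, changed in opposite directions. SNHG4 rose after NONO knockdown from 35.5, 29.4 and 28.9 to 41.3, 37.9 and 40.1 CPM (0.35 ± 0.08, adjusted P = 0.00742). It fell after PKM2 knockdown from 33.8, 30.2 and 25.6 to 14.3, 14.4 and 10.1 CPM, 2.31-fold lower (-1.21 ± 0.13, adjusted P = 7.63e-06). In each experiment the knockdown and NC libraries were separate.

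SNHG12 rose after NONO knockdown from 17.3, 15.3 and 15.8 to 21.1, 21.1 and 24.1 CPM (0.46 ± 0.09, adjusted P = 0.00224). It fell after PKM2 knockdown from 13.1, 11.8 and 12.2 to 7.87, 7.99 and 9.27 CPM (-0.56 ± 0.10, adjusted P = 0.000470). The 3 knockdown libraries were all above the NC libraries in the NONO experiment and all below them in the PKM2 experiment.

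SNHG8, the host of SNORA24, rose in both experiments (0.38 ± 0.08, adjusted P = 0.00335, and 0.32 ± 0.09, adjusted P = 0.00656). EPB41L4A-AS1 (0.47), SNHG15 (0.42), SNHG7 (0.28) and DANCR (0.23) rose after PKM2 knockdown. Their values after NONO knockdown lay between -0.03 and 0.11 and did not pass, and of these only the difference between the knockdowns of EPB41L4A-AS1 and SNHG15 passed its own test. Among these, the adjusted P of DANCR was 0.0630 without the second PKM2 NC library and that of SNHG7 was 0.0798 without the third, and DANCR passed after NONO knockdown without the first NC library (0.24, adjusted P = 0.00195). SNHG11 (0.26 and 0.42) and SNHG9 (-0.24 and -0.52) did not pass, but after PKM2 knockdown they did without the first (SNHG11, adjusted P = 0.0317) or the second (SNHG9, adjusted P = 0.0247) knockdown library. With limma on log2(TPM + 1) the PKM2 calls of SNHG8, SNHG7, DANCR and EPB41L4A-AS1, and the NONO call of SNHG4, were lost. In the same fit SNHG11 (0.41, adjusted P = 0.0326) and SNHG9 (-0.55, adjusted P = 0.0129) passed after PKM2 knockdown.

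**Figure D3:**
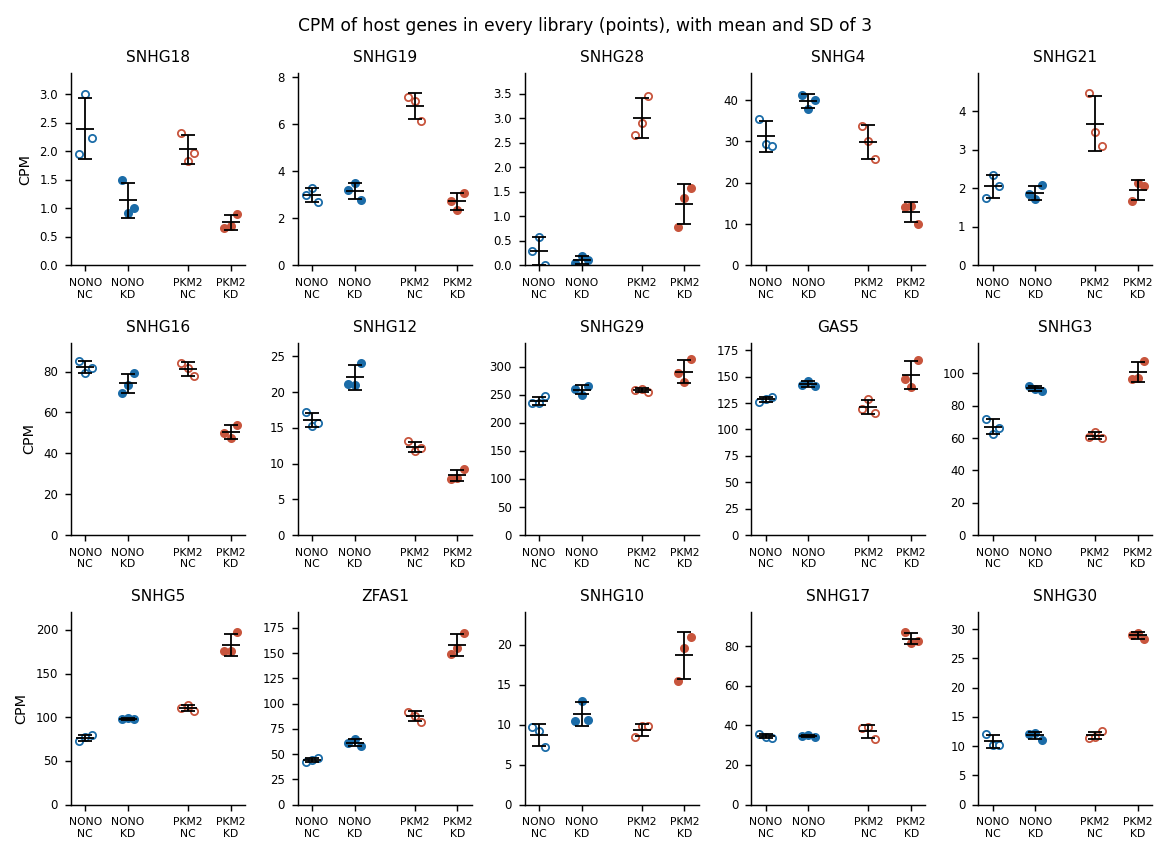
CPM of 15 host genes in each library (points), with the mean and SD of 3 libraries per group; open points are NC and filled points knockdown libraries, blue for the NONO and red for the PKM2 experiment, and every axis starts at 0. SNHG4 and SNHG12 stand above NC in the NONO experiment and below NC in the PKM2 experiment, while ZFAS1, SNHG5 and SNHG3 stand above NC in both.

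The hosts of small Cajal body RNAs did not pass the test after NONO knockdown (none of 3 tested by edgeR, with 1 at an unadjusted P below 0.05, and none by DESeq2), and after PKM2 knockdown all 3 tested did, beside 33.4% and 68.4% of all genes. SNHG10, the host of SCARNA13, rose from 8.43, 9.81 and 9.81 to 15.4, 19.6 and 21.0 CPM after PKM2 knockdown (1.00 ± 0.12, adjusted P = 1.60e-05). After NONO knockdown it was at 10.4, 13.0 and 10.6 CPM beside 9.74, 9.20 and 7.15 in the NC libraries (0.38 ± 0.14, adjusted P = 0.0554, and 0.00770 without the first NC library). The groups were separate in both experiments.

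SNHG21, the host of SCARNA15, fell after PKM2 knockdown from 4.47, 3.46 and 3.10 to 1.66, 2.15 and 2.06 CPM (-0.91 ± 0.21, adjusted P = 0.00221). In the NONO experiment it was at 1.76, 2.34 and 2.06 CPM in the NC and at 1.85, 1.73 and 2.08 in the knockdown libraries (-0.12 ± 0.23, adjusted P = 0.727), where the groups overlapped. SNHG20, the host of SCARNA16, rose after PKM2 knockdown (0.44 ± 0.13, adjusted P = 0.00935) and was at -0.16 ± 0.11 after NONO knockdown (adjusted P = 0.294). The PKM2 call of SNHG20 was lost with limma on log2(TPM + 1), where its change was 0.06.

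SNHG28, whose annotated snoRNA has no family name, fell after PKM2 knockdown from 2.66, 2.90 and 3.46 to 0.787, 1.38 and 1.59 CPM (-1.26 ± 0.27, adjusted P = 0.00126). In the NONO experiment it had at most 11.7 counts in a library and was not tested. The PKM2 groups were separate, but the tables give its transcript different lengths and GENCODE 29 holds another gene of the same name that shares 2242 exonic bases with it. That other gene had 52.3 to 123 counts per library in the NONO experiment and did not pass (-0.21, adjusted P = 0.556, edgeR). In the PKM2 experiment it had 4.69 to 32.7 counts and did not pass either (-0.75, adjusted P = 0.184). The fall of SNHG28 was thus called for the member's own entry only, and how reads were divided between the entries was not tested.

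Of the 4 members without an annotated snoRNA, 2 were tested after NONO and 3 after PKM2 knockdown. None of those tested passed by edgeR, beside 33.4% and 68.4% of all genes. TUG1, a widely expressed RNA, was at 178.5 ± 3.35 CPM (SD, n = 3) in the NC and 181.8 ± 1.06 in the NONO-knockdown libraries (0.03 ± 0.04, adjusted P = 0.653). In the PKM2 experiment it was at 156 ± 4.13 in the NC and 159 ± 20.7 CPM in the knockdown libraries (0.02 ± 0.08, adjusted P = 0.821). Knockdown library 3 of the PKM2 experiment, at 135 CPM, stood below the others of that experiment, and without it the change was 0.13 with an adjusted P of 0.00630. CCDC26 had 9.29 to 31.1 counts per library and log2 values of 0.18 and -0.15 for the changes. SNHG27 was a DEG after PKM2 knockdown by the unadjusted cutoff (-1.26 ± 0.55) on 1 to 16.96 counts per library, with an adjusted P of 0.0600, or of 0.0298 without the first knockdown library.

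Whether a host changed by the same amount in both knockdowns was tested as a difference of the log2 fold changes (PKM2 minus NONO) over the 12 libraries. The changes differed for 14 of 32 members, 43.8% beside 53.1% of all 15995 genes tested, with 9 higher after PKM2 knockdown (28.1% beside 25.7%) and 5 lower (15.6% beside 27.4%). The difference was largest for SNHG4 (-1.57 ± 0.17, adjusted P = 6.89e-07), SNHG19 (-1.39 ± 0.23, adjusted P = 6.98e-05), SNHG17 (1.16 ± 0.09, adjusted P = 1.25e-08), SNHG30 (1.14 ± 0.12, adjusted P = 7.00e-07) and SNHG12 (-1.03 ± 0.14, adjusted P = 6.57e-06). Of the 29 members tested in both experiments, 9 passed in both, 6 of them raised in both (ZFAS1, SNHG5, SNHG3, SNHG8, SNHG1 and GAS5), SNHG18 lowered in both, and SNHG4 and SNHG12 in opposite directions. A further 12 passed after PKM2 knockdown and not after NONO knockdown, 1 (SNHG6) the other way, and 7 in neither. Of all genes tested, 33.4% passed after NONO and 68.4% after PKM2 knockdown, and the share that passed in both is not given here.

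ZFAS1, SNHG5 and SNHG3, though raised in both, rose more after PKM2 knockdown, by 0.36 ± 0.09 (adjusted P = 0.00229), 0.36 ± 0.08 (adjusted P = 0.000765) and 0.26 ± 0.08 (adjusted P = 0.0148). The differences of SNHG1 (0.02 ± 0.09, adjusted P = 0.901), SNHG8 (-0.07 ± 0.12, adjusted P = 0.644), SNHG18 (-0.37 ± 0.39, adjusted P = 0.445) and GAS5 (0.16 ± 0.08, adjusted P = 0.125) did not pass, which does not show equal changes. GAS5 passed without the second PKM2-knockdown library (0.21, adjusted P = 0.0440). Across the 29 members, which are not independent replicates, the changes in the experiments had a Pearson correlation of 0.459 and a Spearman correlation of 0.314. The correlation over all genes is not given here.

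**Figure D4:**
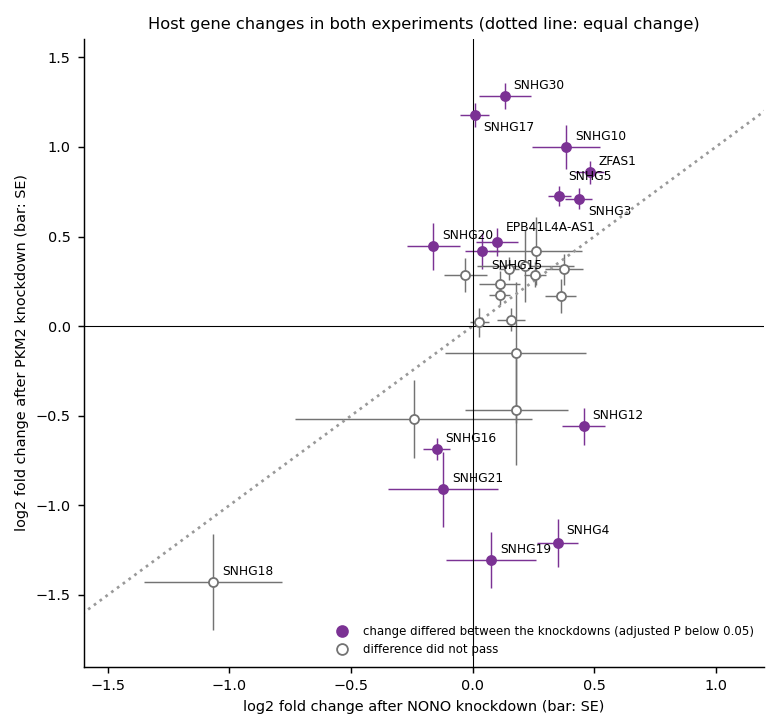
Log2 fold change after PKM2 knockdown (y axis) against that after NONO knockdown (x axis) for the 29 host genes tested in both, with standard errors; the dotted line is equal change, and filled points are members whose change differed with an adjusted P below 0.05. SNHG4 and SNHG12 lie at lower right, raised by 0.35 and 0.46 in one experiment and lowered in the other, and SNHG18 lies apart at lower left.

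The snoRNAs themselves were hardly seen in these poly(A)-selected libraries. Of 549 rows named SNORD, SNORA or SCARNA in the NONO table, 36 had any count, and their counts summed to 21.9 to 41.7 per library. In the PKM2 experiment 90 of 540 such rows had a count, with sums of 57.1 to 193. Of the snoRNAs that RefSeq places in the members, none passed the filter for testing, and the highest count of any in a library was 11.2, for SCARNA16. Levels of the mature snoRNAs were therefore not measured, and the values above are of polyadenylated host RNA. Whether that RNA was spliced was not tested.

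Several hosts share exonic bases with a neighbour in GENCODE 29, and whether counting used the strand is not given in the sources used here, so reads in the shared stretch cannot be assigned with certainty. ZFAS1 shares 249 bases with ZNFX1 on the opposite strand, and ZNFX1 moved by 0.34 after NONO and by -0.76 after PKM2 knockdown. SNHG3 shares 242 bases with RCC1 on the same strand (0.11 and 0.45), and SNHG4 shares 626 bases with MATR3 on the same strand (0.29 and 0.33). For SNHG4 the neighbour's value after PKM2 knockdown had the opposite sign.

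SNHG10 shares 391 bases with GLRX5 (0.01 and 0.32) and SNHG29 shares 452 with LRRC75A (-0.57 and -1.52), both on the opposite strand. EPB41L4A-AS1 shares 1659 bases with EPB41L4A, which fell by 1.76 on the log2 scale after PKM2 knockdown (adjusted P = 5.15e-05) while EPB41L4A-AS1 rose. SNHG16 shares 1639 bases with AC015802.6, which had at most 11 counts in a library. SNHG21, which fell after PKM2 knockdown, shares 768 bases with AC105339.2 on the same strand, and this neighbour did not pass in either experiment (-0.08 and -0.17). SNHG32 shares 418 bases on the same strand with AL671762.1, which moved by 0.55 after PKM2 knockdown and was not tested after NONO knockdown. SNHG7 shares 1094 bases with FAM69B on the opposite strand (-0.37 and -1.94). SNHG20 shares 460 bases on the same strand with SEC14L1 (-0.24 and -0.03). SEC14L1 had 5236 to 9100 counts per library and SNHG20 141 to 277, so reads of the neighbour could weigh on the SNHG20 values, which was not tested.

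The other genes of the pathway were described by counts in lists chosen with earlier results of these data known. Of 49 protein-coding snoRNA hosts, mostly ribosomal protein and translation factor genes, 25 rose and 1 fell after NONO knockdown (median 0.15), and 30 rose and 8 fell after PKM2 knockdown (median 0.26), beside medians of -0.01 for all genes. Of all genes, 16.2% rose and 17.2% fell in the NONO experiment, and 33.6% rose and 34.7% fell in the PKM2 experiment. EIF4A1, an RNA helicase of translation initiation, rose in both (0.48 ± 0.04, adjusted P = 1.30e-05, and 0.74 ± 0.05, adjusted P = 8.29e-08). RPS12 (0.37) and TNPO2 (0.35) followed after NONO knockdown, where RPL4 fell (-0.36). After PKM2 knockdown EIF5 (1.00) and NCL, encoding nucleolin (0.73), rose with EIF4A1, whereas RPL10, a protein of the large ribosomal subunit, fell by 3.07 on the log2 scale, TNPO2 by 0.57 and IPO7 by 0.49. Ribosomal protein genes have many processed pseudogenes, so their counts are uncertain. The count after NONO knockdown ran from 16 genes without the second knockdown library to 40 without the first NC library, and was 11 with limma on log2(TPM + 1).

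RPL10 went from 500.7 ± 4.69 CPM in the NC to 59.8 ± 2.37 in the PKM2-knockdown libraries (SD, n = 3). NOP56 and DKC1 stand in this list and in one of the protein lists below.

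Of the 4 box C/D core proteins, the methyltransferase FBL passed after NONO knockdown (0.23). All 4 passed after PKM2 knockdown, FBL (0.22) and NOP58 (0.22) upward, and NOP56 (-0.21) and SNU13 (-0.91), the protein that first binds the box C/D fold, downward. Of the 4 box H/ACA proteins, the pseudouridine synthase DKC1 (0.28 and 0.40), NHP2 (0.20 and 0.18) and NOP10 (0.18 and 0.56) rose in both experiments. Of 13 assembly factors, 5 rose and 2 fell after NONO knockdown, and 7 rose and 3 fell after PKM2 knockdown, beside 33.4% and 68.4% of all genes called. NOLC1, a nucleolar and Cajal body phosphoprotein that associates with snoRNPs, rose most in both, from 177 ± 15.98 to 554 ± 3.97 CPM (1.64 ± 0.06) and from 135 ± 1.09 to 596 ± 16.4 CPM (2.14 ± 0.05; SD of CPM, n = 3).

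TCOF1 (0.77) and SHQ1 (0.39) rose after NONO knockdown while ZNHIT6 (-0.51) and TAF9 (-0.27) fell. After PKM2 knockdown TAF9 (0.94) and NUFIP1 (0.68) rose while SHQ1 (-0.45), RUVBL1 (-0.28) and ZNHIT3 (-0.19) fell. The test of the difference between the knockdowns was run over all genes that passed its filter, but its results for these genes are not given here. The 21 proteins and assembly factors together gave 11 calls after NONO knockdown, and 7 without the second knockdown library.

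Of 15 NMD factors, 2 (UPF2, 0.40, and CASC3, 0.32) rose after NONO knockdown and none fell by edgeR (median 0.03), and 7 passed without the first NC library. After PKM2 knockdown 11 rose and 2 fell (median 0.33). Of all genes 33.4% passed after NONO and 68.4% after PKM2 knockdown, and whether the NMD factors differed from them was not tested. SMG5 (0.72), UPF3B (0.72) and SMG1, the kinase that acts on UPF1 (0.71), rose most. SMG6, the NMD endonuclease, fell by 0.23 on the log2 scale.

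**Figure D5:**
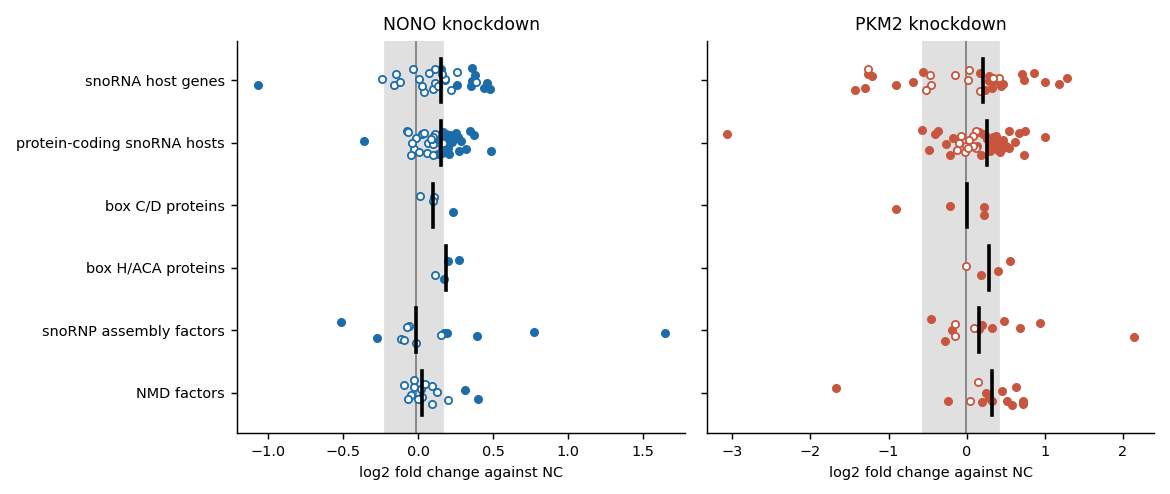
Log2 fold change against NC of the snoRNA host genes and of the other lists (points, filled where the adjusted P is below 0.05; black bars are medians) after NONO (left) and PKM2 (right) knockdown; the gray band spans the quartiles of all genes tested and the gray line their median. NOLC1 stands alone at 1.64 and 2.14 among the assembly factors, and RPL10 is the lowest of the protein-coding hosts after PKM2 knockdown, at -3.07.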

How the data were processed

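RNA-seq of 12 libraries (MDA-MB-231; poly(A) selection, paired reads of 150 bases) was used. The authors deposited estimated counts per gene, which are not whole numbers, and TPM. Submitters' processing notes name fastp, HISAT2, StringTie, RSEM, DESeq2, edgeR and limma and the build hg19, without roles. Coordinates and sequences here are from GENCODE 29 and RefSeq (GRCh38) and served for location only. The fold changes (as ratio and as log2), p-values and mean TPM that the authors also deposited were not used, and 0 columns with values per library were left out.

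Groups came from the sample labels. Counts were rounded and tested per experiment with edgeR 4.0.16 (R 4.3.3; TMM, filterByExpr, quasi-likelihood, Benjamini-Hochberg over all genes tested). Differences between knockdowns were a contrast over the 12 libraries. Standard errors come from the F statistic, and CPM is TMM-normalized. With 3 libraries a group, depth was 19861762 to 28455268 counts. The procedures were tested on simulated data. Values per library are given for members with an adjusted P below 0.05 and an absolute log2 fold change of at least 0.5, those called in opposite directions and the 3 highest in TPM; of other lists, the 3 largest called rises and falls are named. Members and lists were chosen with earlier results of these data known. Replicates differed by more than sampling noise (chi-square per degree of freedom 2.33 to 12.3). Alternatives were normalization by relative log expression, DESeq2 1.42.0, the replicate number as a block, testing without the filter on low counts, limma 3.58.1 on log2(TPM + 1) or log2(TPM + 0.1) with a mean TPM of at least 1 or without that filter, removal of the trend with transcript length in 20 bins, and each library left out. Some genes and sequences that the rules above would name are not reported here.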

Additional observations from a re-analysis of the deposited data

Results flagged for a closer look

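The changes of 14 host genes differed between the knockdowns by the edgeR test of the difference (PKM2 minus NONO, on the log2 scale, adjusted P below 0.05). Higher after PKM2 knockdown were SNHG17 (1.16), SNHG30 (1.14), SNHG10 (0.60), SNHG20 (0.59), SNHG15 (0.37), ZFAS1 (0.36), SNHG5 (0.36), EPB41L4A-AS1 (0.35) and SNHG3 (0.26). Lower after PKM2 knockdown were SNHG4 (-1.57), SNHG19 (-1.39), SNHG12 (-1.03), SNHG21 (-0.80) and SNHG16 (-0.55). SNHG4 and SNHG12 had passed the test in opposite directions in the experiments. The difference of SNHG21 passed in 8 of 17 fits (the main one and 16 alternatives), and that of SNHG15 in 13. The knockdowns were made in separate experiments with their own NC libraries, so a difference between experiments and a difference between the targeted genes cannot be told apart.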

How the results depend on the processing

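Of the calls at an adjusted P below 0.05, 4 of 10 after NONO knockdown, 14 of 22 after PKM2 knockdown and 11 of 14 for the difference were made in every fit run for them, and no called change reversed. With limma on log2(TPM + 0.1), log2(TPM + 1) and log2(TPM + 1) without the TPM filter, in that order, the NONO experiment gave medians of 0.0522, 0.0454 and 0.0408 over the hosts, 11, 11 and 6 protein-coding hosts called and 7, 7 and 5 snoRNP proteins and assembly factors called. For the last of these, 11 were called after PKM2 knockdown in each. Without the TPM filter 4 hosts passed after NONO knockdown (4 raised, 0 lowered, 9 at an unadjusted P below 0.05), and 7 were raised and 8 lowered after PKM2 knockdown with a median of 0.0578. The cause was not tested.

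With 1 library left out, the NONO experiment gave 8 to 14 hosts called (8 to 13 raised, 0 to 1 lowered), 0 to 1 DEGs, 16 to 40 protein-coding hosts, 7 to 14 snoRNP proteins and assembly factors, 2 to 7 NMD factors and medians of 0.119 to 0.170. The PKM2 experiment gave 20 to 24 hosts (13 to 16 raised, 7 to 8 lowered), 6 to 9 DEGs and medians of 0.142 to 0.252, and the difference 12 to 17 hosts. SNHG18 was no DEG after NONO knockdown without NC library 2 or knockdown library 2 or 3.

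Repeats with the same number did not deviate together (correlations of -0.0655 to 0.0365). The values thus gave no sign of pairing by number, but with 3 libraries a group they cannot exclude it. With the replicate block, 10, 22 and 13 hosts were called (NONO, PKM2, difference), the difference of SNHG21 being lost (-0.80, adjusted P = 0.0708), beside 4351, 10525 and 8239 of all genes. Removing the trend with transcript length moved the 61 values by at most 0.12 and turned the sign of 1.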
